A study of Mus musculus with 6 samples.

Results

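Inbred C57BL/6 mice are kept as several substrains, and a short list of genes is known to differ between them by mutation, copy number or transcript level. The genes described here are Nnt, Wdfy1, Entpd4, Ide, Mmrn1, Cyfip2 and Nlrp12, which are known for such differences, together with AC149090.1, a gene model on an unplaced scaffold, and its relative Pisd. They were found by gene name in the count table: 9 names matched 10 of its 54532 entries, because Nnt has 2. Of these entries 8 passed the filter of 0.5 CPM (counts scaled to a common library size) in 1 or more libraries, as did 18689 entries in all, and 2 (Entpd4 and the second Nnt entry) were listed at 0 in all 6 libraries. The names were chosen with values of the WT and ISM1-/- libraries already known, so their values are given as a description, and no p-value of theirs is given. Where a count of genes past a threshold includes one of them, nothing is read from its place in that count.

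The RNA came from the perfused whole lungs of untreated mice at 2 months of age, 3 WT and 3 ISM1-/-, with 1 strand-specific, poly-A selected library per mouse. WT animals were C57BL/6J mice bought from a vendor. ISM1-/- animals, described as knockouts of the gene of the secreted protein isthmin 1, came from an in-house line made on the C57BL/6J background. Genotype and source of the animals therefore change together, and the 2 cannot be told apart in these libraries. How the ISM1-/- line was bred after it was made, and the substrain that its animals carry at each gene below, are not given in the sources used here.

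Library totals lay between 37606133 and 42345042 counts. The targeted gene Ism1 was still read in the libraries labelled ISM1-/-, at 69.1 ± 5.72 CPM against 78.9 ± 2.88 in WT (mean ± SD, n = 3), so the group of each library rests on its label throughout. Some markers of other tissues differed between the groups. Of 8 adipocyte markers, 7 were lower in ISM1-/- at an adjusted p under 0.1, as were 3.34% of all genes. Their summed level was 242 to 286 CPM in WT and 96.0 to 169 in ISM1-/-. The summed level of 8 cardiomyocyte markers was 532 to 1624.5 CPM in WT and 291 to 566 in ISM1-/-. These ranges overlap, and 1 of the 8 was lower past that threshold. Of 8 lung markers, all passed the filter, and Scgb1a1 of club cells (log2 fold change −0.51) and Col1a1 of fibroblasts (−0.33) were lower in ISM1-/- (adjusted p = 0.0270 and 0.0517, Benjamini-Hochberg adjusted quasi-likelihood test of edgeR). In whole lung, fewer cells of a type and less RNA per cell cannot be told apart.

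Most of these genes were read at close levels in both groups. Of the 8 entries with enough counts, 6 had an absolute log2 fold change under 0.3, 4 had a higher mean in ISM1-/- and 4 a lower one. Their median absolute log2 fold change was 0.13, beside 0.11 over all genes tested. AC149090.1 (−1.10) and Nlrp12 (1.37) lay outside the range from the 5th to the 95th percentile of all genes, −0.51 to 0.46. These 2 were also the entries at an adjusted p under 0.1 with at least a 2-fold change, 1 in each direction. That rule was met by 0.567% of all genes, 0.284% higher and 0.284% lower in ISM1-/-, and nothing is read from that count because the genes were picked on this contrast.

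**Figure D1:**
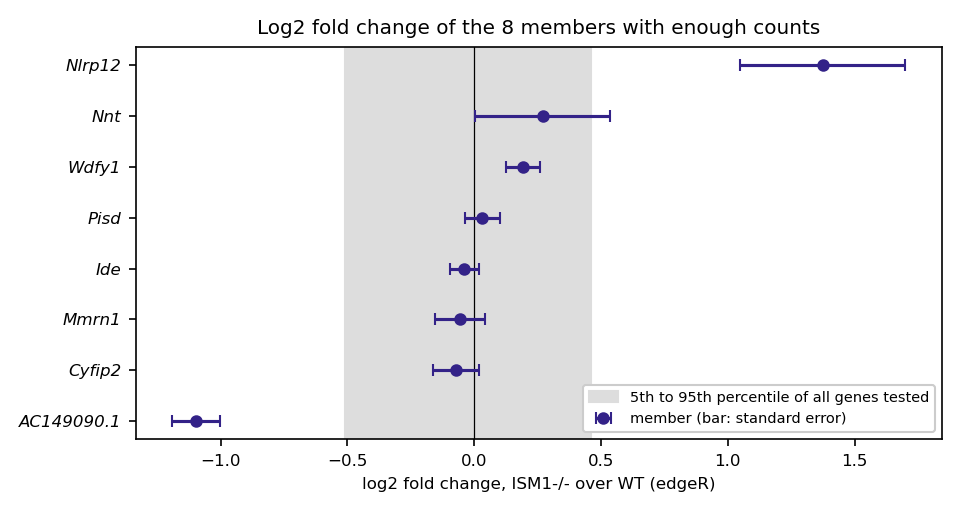
Log2 fold change of ISM1-/- over WT (horizontal axis, from edgeR) of the 8 listed genes with enough counts. AC149090.1 and Pisd are not among those known for substrain differences. Bars are standard errors and the grey band spans the 5th to the 95th percentile of the 18689 genes tested. AC149090.1 at −1.10 and Nlrp12 at 1.37 lie outside the band, and the other 6 genes lie inside it.

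Per length, on the scale of FPKM (fragments scaled to gene length and library size), the order of mean levels was the same in both groups. AC149090.1 was highest (139 in WT and 64.5 in ISM1-/-), followed by Ide (31.1 and 30.1), Pisd (20.1 and 20.4), Wdfy1 (15.8 and 18.0), Cyfip2 (9.83 and 9.30), Mmrn1 (6.24 and 5.97), Nnt (0.304 and 0.363) and Nlrp12 (0.117 and 0.305). Neighbours in this order had ranges over 3 libraries that did not overlap, with the exception of Nnt and Nlrp12 in ISM1-/-. AC149090.1 thus stood above 93.0% of the tested protein-coding genes by its mean FPKM, while 3.78% stood below Nnt and 1.74% below Nlrp12. Reads shared with the second Nnt entry may be missing from the Nnt level. The same holds for Pisd, of which 20.9% of the exonic bases lie in another gene on the same strand.

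**Figure D2:**
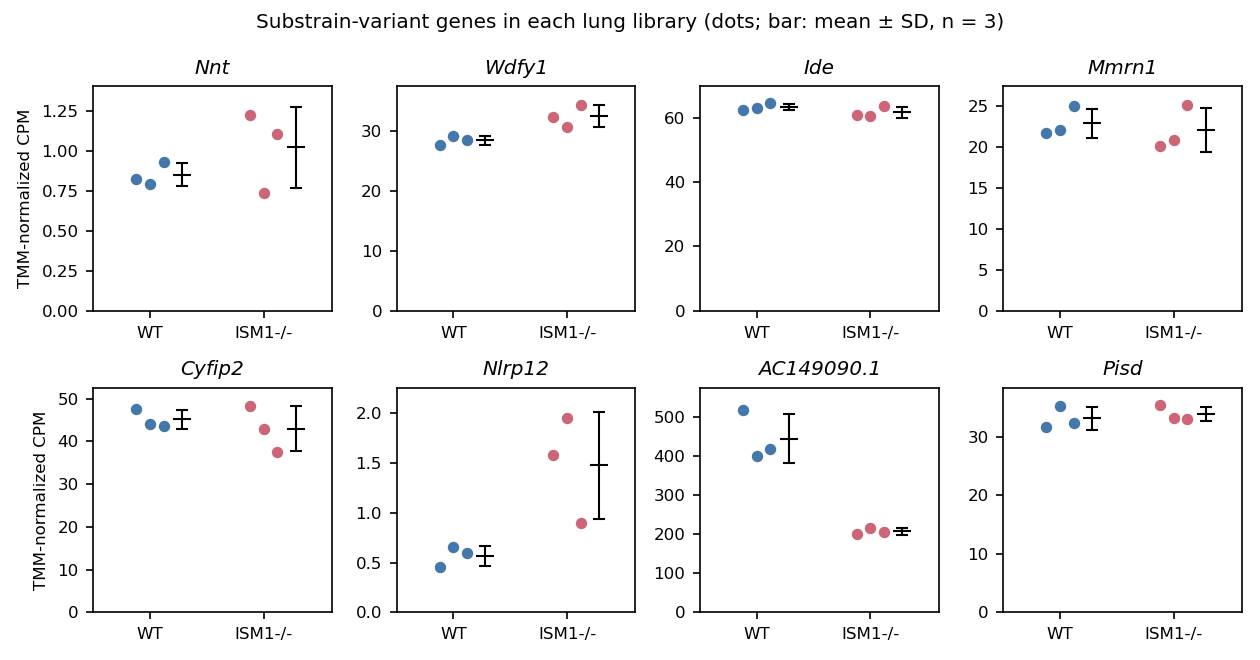
TMM-normalized CPM (vertical axis, from 0) of the 8 listed genes with enough counts in each of 3 WT (blue) and 3 ISM1-/- (red) lung libraries. AC149090.1 and Pisd are not among those known for substrain differences. Dots are libraries and bars are the mean ± SD. AC149090.1, Nlrp12 and Wdfy1 show groups that do not overlap, with ISM1-/- at 208 against 445 CPM, 1.47 against 0.565 CPM and 32.5 against 28.4 CPM.

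Nnt encodes the transhydrogenase of the inner mitochondrial membrane, which uses the proton gradient to make NADPH for the glutathione and thioredoxin systems. C57BL/6J mice carry a deletion of several of its exons and lack the protein, whereas C57BL/6N mice carry an intact gene. The main entry (ENSMUSG00000025453, GRCm38 chr13:119335448-119408997, minus strand, protein-coding) was read 31, 33 and 36 times in WT and 52, 28 and 43 times in ISM1-/-. Nnt was thus near the detection limit in every library, and the groups overlapped. Its level was 0.849 ± 0.0719 CPM in WT and 1.02 ± 0.252 CPM in ISM1-/- (mean ± SD, n = 3), a difference of 0.27 on the log2 scale (standard error, SE, 0.265).

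The second Nnt entry (ENSMUSG00000116207, protein-coding) lies wholly inside the first on the same strand. In GENCODE M21, 3339 of the 7037 exonic bases of the main entry (47.5%) also belong to the second, and of the longest transcript of the main entry, 96.2% of its windows of 150 bases, the read length, occur in the second. A counter that drops reads shared by overlapping genes could assign reads of the remaining 3698 exonic bases alone. Over the whole table, 121 of 133 protein-coding genes whose exons lie entirely within another gene on the same strand had 0 counts (91.0%), against 3478 of 15485 such genes without any exonic overlap (22.5%). The part of this overlap in the low Nnt count was not tested. GRCm38 is the C57BL/6J sequence, and its longest Nnt transcript has 17 exons, so reads from exons deleted in that substrain have no place in this gene model and the table cannot show whether an intact Nnt was present.

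The other genes of mitochondrial NADPH supply and use were read at far higher levels per length. Over 15 such genes the median was 28.3 FPKM and the lowest value 0.951 FPKM, above both Nnt means. Reads shared with the second Nnt entry may be missing from those means, so the comparison is of counted reads and not of expression. One of the 15, Nadk2, the mitochondrial NAD kinase that supplies NADP+, was lower in ISM1-/-, at 967, 831 and 895 counts against 1120, 1108 and 1049 in WT. Its libraries did not overlap, and it fell by 0.31 on the log2 scale (SE 0.0685, adjusted p = 0.0507, Benjamini-Hochberg adjusted quasi-likelihood test of edgeR). None of the 15 rose and 1 fell at an adjusted p under 0.1, beside 1.38% and 3.34% of all genes, and 12 of the 15 had a lower mean in ISM1-/-. Idh2, the mitochondrial NADPH-forming isocitrate dehydrogenase, had 130 ± 4.97 CPM in WT and 118 ± 3.86 in ISM1-/-. With single libraries left out, Nadk2 stayed under the threshold in 1 of 6 fits, with adjusted p values from 0.0401 to 0.176.

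**Figure D3:**
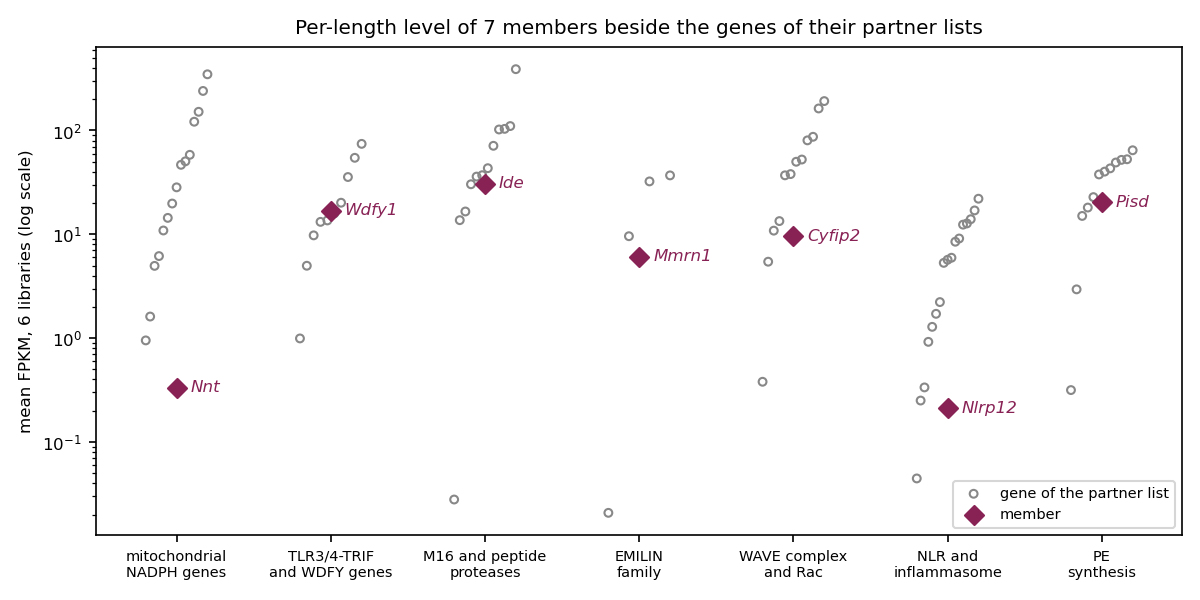
Mean FPKM over 6 libraries (vertical axis, log scale) of 7 of the listed genes (diamonds). Circles, ordered by level, are the genes of the list that shares their pathway or family. Nnt, which may lack reads shared with its second entry, lies below all 15 mitochondrial NADPH genes, of which the lowest is at 0.951 FPKM. Ide, Wdfy1, Cyfip2, Pisd, Mmrn1 and Nlrp12 lie within the spread of their lists, genes below the filter included. The lowest gene of the Nlrp12 list, Nlrp6 with 1 to 11 counts per library, was below the filter.

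Entpd4 encodes a nucleoside diphosphatase of the Golgi and lysosomal membranes, one of the enzymes that hydrolyse nucleotides within membrane compartments. Entpd4 (ENSMUSG00000095463, GRCm38 chr14:69337174-69367270, plus strand, protein-coding) was listed at 0 counts in all 6 libraries. Its neighbour copy Entpd4b (ENSMUSG00000022066, chr14:69555424-69585520, plus strand) had 1 count in the first WT library and 0 in the other 5. The longest transcripts of the 2 genes are both 3589 bases long and are identical over their whole length, with 0 mismatches, so that all 3440 windows of 150 bases in Entpd4 occur in Entpd4b. A stretch of coding exon 3 is shown because it makes plain why a read cannot be placed in one copy, namely chr14:69349073-69349132 of Entpd4 and chr14:69567323-69567382 of Entpd4b (both GRCm38, plus strand, from the GENCODE M21 transcripts), which differ at 0 of 60 positions.
Entpd4: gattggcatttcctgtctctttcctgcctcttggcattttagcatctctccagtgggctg
Entpd4b: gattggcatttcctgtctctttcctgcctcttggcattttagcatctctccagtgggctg

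A count of 0 for Entpd4 is therefore a statement about reads placed in 1 copy, and the table holds no level of the 2 copies together. Of the other ectonucleotidases and their relatives, 11 of 12 were tested, 0 rose and 2 fell at an adjusted p under 0.1, beside 1.38% and 3.34% of all genes. Entpd8, a plasma membrane enzyme that hydrolyses extracellular nucleotides, was counted 113, 85 and 115 times in WT and 43, 47 and 57 times in ISM1-/-. Every ISM1-/- library was lower than every WT library, at 1.24 ± 0.225 against 2.67 ± 0.541 CPM, a difference of −1.11 on the log2 scale (SE 0.226, adjusted p = 0.0378, Benjamini-Hochberg adjusted quasi-likelihood test of edgeR). Entpd3, another cell surface ectonucleotidase, was counted 237, 238 and 228 times in WT against 161, 164 and 102 in ISM1-/-, again without overlap (log2 fold change −0.74, SE 0.177, adjusted p = 0.0635, same test). With single libraries left out, Entpd8 kept its call in 3 of 6 fits and Entpd3 in 2 of 6. Entpd1 (CD39), the ectonucleotidase with the highest CPM of the list, had 142 ± 4.44 CPM in WT and 148 ± 15.1 in ISM1-/-.

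Wdfy1 encodes a FYVE-domain protein of early endosomes that binds TRIF downstream of Toll-like receptors 3 and 4, and its transcript level is known to differ between substrains. Wdfy1 (ENSMUSG00000073643, GRCm38 chr1:79702262-79776143, minus strand, protein-coding) was at 27.6, 29.1 and 28.5 CPM in WT and 32.3, 30.7 and 34.4 CPM in ISM1-/-. The lowest ISM1-/- library was above the highest WT library, by less than the spread within ISM1-/-. The mean of ISM1-/- was 114% of that of WT, a log2 fold change of 0.19 with an SE of 0.0673. Groups without overlap, as for Wdfy1, Nlrp12 and AC149090.1, occurred in 21.6% of all genes tested.

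No gene of the list of Toll-like receptor, TRIF and WDFY genes was past an adjusted p of 0.1 in edgeR, beside 4.72% of all genes. Of 11 genes 10 were tested, with log2 fold changes from −0.01 to 0.10. Ticam1, which encodes TRIF, had a log2 fold change of 0.09, Tlr3 of 0.03 and Tlr4 of 0.04. The members with the highest CPM were Wdfy3, an autophagy adaptor of the same protein family (221 ± 11.6 CPM in WT and 220 ± 8.63 in ISM1-/-), and Irf3, the transcription factor activated through TRIF (75.8 ± 3.18 and 79.7 ± 3.31). The start of Wdfy1 lies 125 bases from that of Mrpl44, a mitochondrial ribosomal protein gene on the opposite strand, and 1.94% of the exonic bases of Wdfy1 lie in exons on the opposite strand. Mrpl44 had a log2 fold change of −0.04.

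Ide encodes the insulin-degrading enzyme, a zinc metalloprotease that also cleaves other small peptides, and a duplication that includes Ide and Fgfbp3 is known to occur in some C57BL/6J animals. Ide (ENSMUSG00000056999, GRCm38 chr19:37268743-37337852, minus strand, protein-coding) was at 62.5, 63.0 and 64.4 CPM in WT and 60.8, 60.4 and 63.6 CPM in ISM1-/-. It was the steadiest of the 8 genes in WT, with a coefficient of variation of 1.57% there and 2.89% in ISM1-/-, and the groups overlapped. Its log2 fold change was −0.04 with an SE of 0.0568. Fgfbp3, the other gene of that duplication, had 5.08 ± 0.252 CPM in WT and 5.09 ± 0.220 CPM in ISM1-/-.

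Of 12 related metalloproteases, other peptide-degrading enzymes and insulin receptors, 11 were tested. At an adjusted p under 0.1 were 0 of the 11, beside 4.72% of all genes. Ece1, the endothelin-converting enzyme, had the highest CPM of them (602 ± 24.0 in WT and 574 ± 23.7 in ISM1-/-), followed by Mme, which encodes neprilysin (201 ± 7.70 and 181 ± 5.30). Their log2 fold changes were −0.07 and −0.15.

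Cyfip2 encodes a subunit of the WAVE complex, which links the small GTPase Rac to actin branching, and C57BL/6N mice carry a missense variant in it. Cyfip2 (ENSMUSG00000020340, GRCm38 chr11:46193850-46312859, minus strand, protein-coding) was at 47.6, 44.1 and 43.7 CPM in WT and 48.2, 42.9 and 37.6 CPM in ISM1-/-. The highest and the lowest library were both ISM1-/-, so the groups overlapped, and the log2 fold change was −0.07 with an SE of 0.0900. A missense variant does not have to change the level of a transcript, and the count table carries no bases, so the allele of Cyfip2 in either group was not analysed here.

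Of 12 genes of the WAVE complex and its Rac switches, all were tested and 10 had a higher mean in ISM1-/-. Their median log2 fold change was 0.07, beside 0.00 over all genes. At an adjusted p under 0.1 were 0 of the 12, beside 4.72% of all genes. The paralog Cyfip1 had 136 ± 3.87 CPM in WT and 138 ± 2.61 in ISM1-/-, and per length its means of 49.6 and 50.3 FPKM were above the 9.83 and 9.30 of Cyfip2. Rac1 (350 ± 5.01 and 361 ± 3.85 CPM) and Wasf2 (254 ± 8.23 and 265 ± 5.92 CPM), which encodes the WAVE protein found in most cells, had the highest CPM of the list, with log2 fold changes of 0.04 and 0.06.

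Mmrn1 encodes multimerin 1, a large adhesive protein of the EMILIN family that is stored in platelets and endothelial cells and is absent from C57BL/6OlaHsd mice, which carry a deletion there. Mmrn1 (ENSMUSG00000054641, GRCm38 chr6:60924976-60989378, plus strand, protein-coding) was at 21.7, 22.0 and 24.9 CPM in WT and 20.1, 20.8 and 25.1 CPM in ISM1-/-. Both groups held 1 library near 25 and 2 libraries below 23 CPM, and they overlapped. The log2 fold change was −0.06 with an SE of 0.0979. Reads of Mmrn1 were thus present in all 6 libraries.

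The 3 tested EMILIN relatives of Mmrn1 held 0 genes past an adjusted p of 0.1, beside 4.72% of all genes. Emilin1 had 103 ± 3.42 CPM in WT and 101 ± 6.73 in ISM1-/-, and Mmrn2, the multimerin of vascular endothelium, had 66.3 ± 4.81 and 79.0 ± 5.10 (log2 fold change 0.25, adjusted p = 0.118, Benjamini-Hochberg adjusted quasi-likelihood test of edgeR). Lymphatic endothelium is a known source of Mmrn1. Of 10 lymphatic markers 9 were tested, of which 7 had a lower and 2 a higher mean in ISM1-/-. The median log2 fold change of the 9 was −0.12, beside 0.00 over all genes. Of the 9, 3 did not overlap between groups (beside 21.6% of all genes) and 0 were past the threshold (beside 4.72%). Lyve1 had 295 ± 37.2 CPM in WT and 267 ± 30.7 in ISM1-/-, and Pdpn, which alveolar type 1 cells also express, had 141 ± 24.1 and 152 ± 11.2. Of 12 platelet and megakaryocyte genes 11 were tested and 10 had a higher mean in ISM1-/-. Their median log2 fold change was 0.27, beside 0.00 over all genes. Of the 11, 7 did not overlap between groups (beside 21.6% of all genes) and 0 were past the threshold (beside 4.72%). The summed level of the list was 697 to 748 CPM in WT and 786 to 825 in ISM1-/-. Vwf, which endothelial cells also express, made up most of that sum at 698 ± 25.2 CPM in WT and 768 ± 20.9 in ISM1-/-, and Itga2b had 7.30 ± 0.522 and 8.82 ± 0.757. Pf4, the platelet factor 4 gene, was the 1 with a lower mean in ISM1-/-, at 6.32 ± 0.443 CPM in WT and 5.52 ± 0.304 in ISM1-/- without overlap.

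Nlrp12 encodes a NOD-like receptor of neutrophils and other myeloid cells that restrains NF-kappaB signalling, and C57BL/6J mice carry a missense variant in it. Nlrp12 (ENSMUSG00000078817, GRCm38 chr7:3218784-3249740, minus strand, protein-coding) was read 17, 27 and 23 times in WT and 67, 74 and 35 times in ISM1-/-. These are 0.451, 0.651 and 0.595 CPM in WT and 1.58, 1.95 and 0.897 CPM in ISM1-/-, so that the groups did not overlap and the third ISM1-/- library lay nearer to WT than the other two. The mean was 0.565 ± 0.103 CPM in WT and 1.47 ± 0.534 in ISM1-/-, a 2.59-fold difference (log2 fold change 1.37, SE 0.327). With single libraries left out the log2 fold change lay between 1.13 and 1.63, and was highest without the third ISM1-/- library. These fits are no test of Nlrp12, which was picked on this contrast. On the log2 scale of FPKM, where the gene is at 0.117 and 0.305, the difference was 0.86 with 0.1 added and 0.22 with 1 added.

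Of 17 NOD-like receptor, inflammasome and related signalling genes, 16 were tested, 1 rose and 0 fell at an adjusted p under 0.1, beside 1.38% and 3.34% of all genes. The gene that rose was Il1b, the inflammasome substrate interleukin 1 beta, at 318, 395 and 270 counts against 219, 199 and 222 in WT (log2 fold change 0.60, SE 0.166, adjusted p = 0.0997, Benjamini-Hochberg adjusted quasi-likelihood test of edgeR). Its groups did not overlap, but it was past the threshold in only 1 of 6 fits with a library left out. Nlrp3, the sensor of the best known inflammasome, had 4.72 ± 0.677 CPM in WT and 5.14 ± 1.09 in ISM1-/-, with overlapping groups.

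Neutrophil markers were listed after the values had been seen, since Nlrp12 is a neutrophil gene. Of 12 such markers 10 were tested, 9 of these had a higher mean in ISM1-/-, and 5 rose and 0 fell at an adjusted p under 0.1, beside 1.38% and 3.34% of all genes. Their median log2 fold change was 0.80, beside 0.00 over all genes, and their summed level was 207 to 235 CPM in WT and 233 to 297 in ISM1-/-. The calprotectin gene S100a8 was counted 178, 190 and 242 times in WT and 852, 487 and 418 times in ISM1-/- (log2 fold change 1.49, SE 0.224, adjusted p = 0.0163, same test), and the chemokine receptor gene Cxcr2 was counted 102, 98 and 175 times in WT and 364, 319 and 201 times in ISM1-/- (log2 fold change 1.21, SE 0.263, adjusted p = 0.0471). As for Nlrp12, the third ISM1-/- library was the lowest of its group for both. The neutrophil surface marker Ly6g had 1 to 8 counts and the granule gene Camp 0 to 8 counts per library, both below the filter. Ltf, an epithelial as well as a neutrophil gene, had 53.8 ± 3.25 CPM in WT and 43.2 ± 7.11 in ISM1-/-. The part of these cells in the Nlrp12 difference was not tested.

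AC149090.1 was at 46.7% of its WT level in the ISM1-/- libraries. This gene model (ENSMUSG00000095041, scaffold JH584304.1, bases 52190 to 59690, minus strand, listed as protein-coding) was read 19529, 16604 and 16168 times in WT and 8546, 8256 and 8036 times in ISM1-/-. The lowest WT library had 400 CPM and the highest ISM1-/- library 218 CPM, a gap wider than the range within ISM1-/-. The mean was 445 ± 63.5 CPM in WT and 208 ± 8.52 CPM in ISM1-/- (log2 fold change −1.10, SE 0.0934). The coefficient of variation was 14.3% in WT, where the first library was highest at 518 CPM, and 4.09% in ISM1-/-. With single libraries left out the log2 fold change lay between −1.17 and −0.97.

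The scaffold is a stretch of the GRCm38 assembly that has not been placed on a chromosome, and AC149090.1 is the 1 gene listed on it. Of 86 genes on unplaced scaffolds 64 had 0 counts in all libraries and 7 were tested. Among the 6 tested genes other than AC149090.1, 0 were past an adjusted p of 0.1 in edgeR's quasi-likelihood test (beside 4.72% of all genes). Below an unadjusted p of 0.05 were 0 of the 6 (beside 15.8%). In DESeq2, 0 of these 6 were past the threshold. Vamp7, a vesicle fusion gene listed on another scaffold, was counted 977, 1005 and 1112 times in WT and 1011, 917 and 1251 times in ISM1-/-.

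Pisd encodes phosphatidylserine decarboxylase, which makes phosphatidylethanolamine in the inner mitochondrial membrane. Pisd (ENSMUSG00000023452, GRCm38 chr5:32736301-32785646, minus strand, protein-coding) was at 31.7, 35.4 and 32.5 CPM in WT and 35.4, 33.2 and 33.1 CPM in ISM1-/-. Its groups overlapped, with a log2 fold change of 0.03 and an SE of 0.0687. The ratio of AC149090.1 to Pisd counts was 16.4, 11.3 and 12.9 in WT and 5.68, 6.55 and 6.22 in ISM1-/-. Since Pisd differs little, this ratio restates the difference in AC149090.1 on a scale that needs no scaling between libraries. Reads that Pisd shares with overlapping gene models may be missing from its counts, so the size of the ratio is of counted reads and not of expression.

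The table also lists the pseudogenes Pisd-ps1 and Pisd-ps2, whose longest transcripts align to that of Pisd with 94.15% identity over 1128 columns and 93.93% over 1071 columns. The stretch below is from the part they share, at chr5:32739149-32739208 of Pisd (minus strand, exon 5), chr11:3129094-3129153 of Pisd-ps1 (plus strand, exon 3) and chr17:3079367-3079426 of Pisd-ps2 (minus strand, exon 3), all GRCm38 and from GENCODE M21 transcripts. Capitals mark the positions at which the 3 differ, and it is shown because such positions are what lets a read be placed in one copy.
Pisd: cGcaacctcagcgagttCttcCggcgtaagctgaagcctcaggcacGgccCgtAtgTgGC
Pisd-ps1: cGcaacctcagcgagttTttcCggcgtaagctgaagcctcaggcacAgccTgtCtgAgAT
Pisd-ps2: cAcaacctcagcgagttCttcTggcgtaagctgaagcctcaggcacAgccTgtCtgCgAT

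Over these 60 positions Pisd-ps1 differs from Pisd at 7 and Pisd-ps2 at 8. The stretch was picked for the most differences among ungapped coding stretches of this length within an exon of Pisd. Over the whole alignments there were 53 mismatches in 1128 columns for Pisd-ps1 and 40 in 1071 for Pisd-ps2. At a window of 150 bases, neither pseudogene shares an identical stretch with another gene, whereas 32.5% of the windows of Pisd occur in the overlapping gene models Gm20671 and Gm43695, both of which had 0 counts. AC149090.1 was not among the sequences compared here, so reads that it may share with Pisd or the pseudogenes were not counted in these windows.

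Pisd-ps1 was counted 676, 680 and 653 times in WT and 604, 543 and 531 times in ISM1-/-. Every ISM1-/- library was lower than every WT library after scaling (log2 fold change −0.28, SE 0.0769, adjusted p = 0.0987, Benjamini-Hochberg adjusted quasi-likelihood test of edgeR), and in all 6 fits with a library left out the adjusted p was above 0.1. Pisd-ps2 was counted 63, 81 and 94 times in WT and 86, 65 and 104 times in ISM1-/- (log2 fold change 0.08, SE 0.224, adjusted p = 0.911, same test). Summed over AC149090.1, Pisd and the 2 pseudogenes, in case reads were split among copies, the level was 569, 454 and 470 CPM in WT and 253, 267 and 255 CPM in ISM1-/-. AC149090.1 made up 88.2 to 91.0% of the sum in WT and 79.6 to 81.5% in ISM1-/-, so the difference in the sum, −0.95 on the log2 scale (SE 0.0849), is mostly that of AC149090.1 and is no separate evidence.

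**Figure D4:**
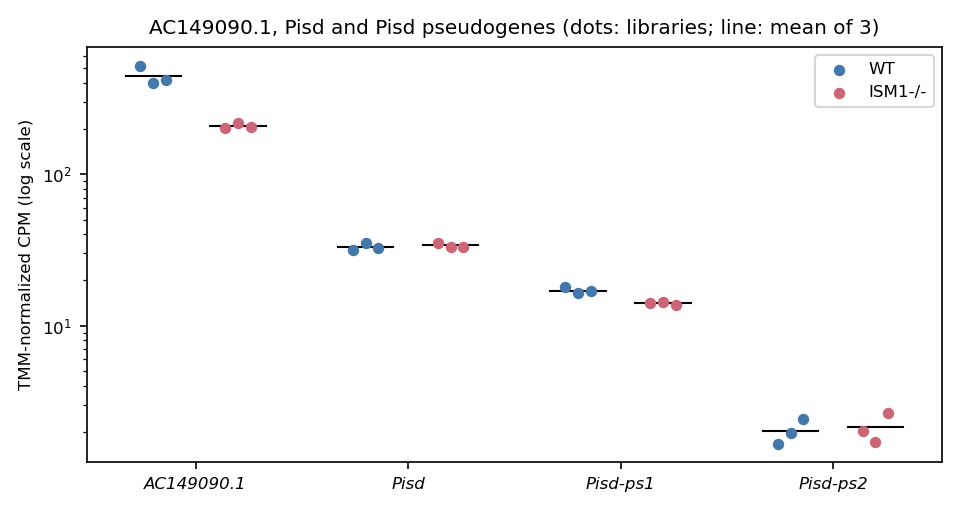
TMM-normalized CPM (vertical axis, log scale) of AC149090.1, Pisd, Pisd-ps1 and Pisd-ps2 in 3 WT (blue) and 3 ISM1-/- (red) lung libraries; dots are libraries and lines are means. AC149090.1 is at 400 to 518 CPM in WT and 201 to 218 in ISM1-/-, while Pisd lies between 31.7 and 35.4 CPM in all 6 libraries.

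Of the other genes of phosphatidylethanolamine synthesis, all 12 on the list were tested. At an adjusted p under 0.1 in edgeR were 0 of the 12, beside 4.72% of all genes. Their log2 fold changes ran from −0.41 to 0.08, with a median of −0.03. Etnk1, the ethanolamine kinase of the parallel cytoplasmic pathway, had 218 ± 1.56 CPM in WT and 211 ± 9.58 in ISM1-/-, and Prelid1, which carries phospholipids between the mitochondrial membranes, had 102 ± 3.77 and 101 ± 11.4.

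Genes that lie beside the listed ones were not used to choose them. Within 500 kb of the start of a listed gene the table has 226 other genes, of which 81 were tested and 1 was past an adjusted p of 0.1 (1.23%, beside 4.72% of all genes). Of the 81, 18 did not overlap between groups (22.2%, beside 21.6% of all genes), and their median log2 fold change was 0.02. The gene past the threshold was A730020E08Rik (chr6:61172293-61180810), a gene model 255834 bases from the start of Mmrn1, at 75, 67 and 84 counts against 114, 130 and 130 in WT (log2 fold change −0.74, SE 0.165, adjusted p = 0.0492, Benjamini-Hochberg adjusted quasi-likelihood test of edgeR). Its libraries did not overlap, and it stayed past the threshold in 2 of 6 fits with a library left out.

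The nearest tested neighbours had small differences for most of these genes. Paip1, a translation factor gene 19604 bases from the start of Nnt, had a log2 fold change of 0.06. Slc25a37, the mitochondrial iron importer gene near Entpd4, had 0.01, Kif11, the mitotic kinesin gene near Ide, had −0.02, Myadm near Nlrp12 had 0.07 and Gm43692 near Pisd had −0.09. Below an unadjusted p of 0.05 were 13 of the 81 neighbours, beside 15.8% of all genes. Around Nnt, 5 of 11 tested neighbours were below it and 0 were past the adjusted threshold, with log2 fold changes in both directions, from −1.01 to 1.04.

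**Figure D5:**
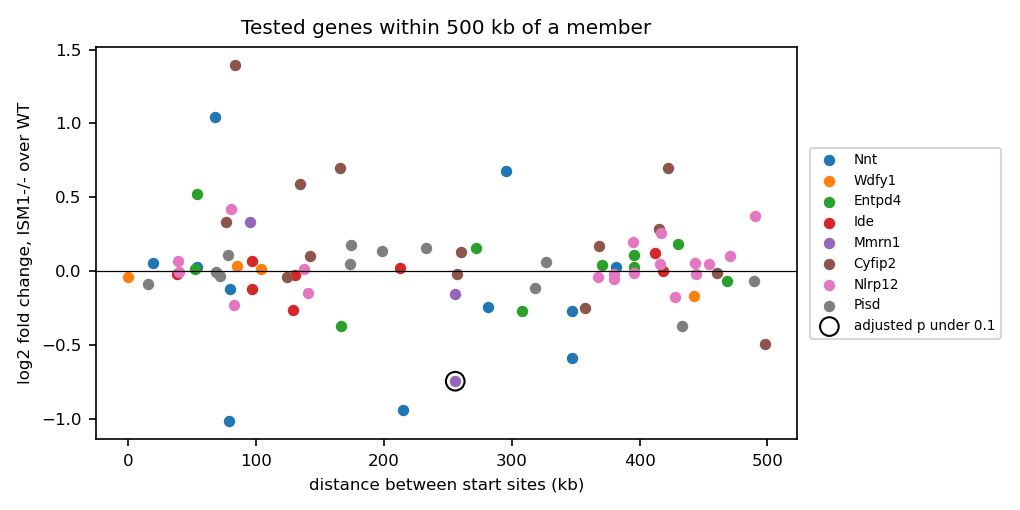
Log2 fold change of ISM1-/- over WT (vertical axis) of the 81 tested genes within 500 kb of a listed gene, against the distance between start sites in kb; colours name the listed gene, and the circle marks an adjusted p under 0.1. The 1 circled gene, A730020E08Rik near Mmrn1, is at −0.74, and points lie on both sides of 0 at all distances.

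Other genes known to vary among C57BL/6 substrains were measured as well. Of 6 such genes, all were tested, 0 rose and 1 fell at an adjusted p under 0.1, beside 1.38% and 3.34% of all genes. Crb1, a cell polarity gene in which C57BL/6N mice carry the retinal degeneration allele rd8, was counted 96, 102 and 66 times in WT and 48, 45 and 53 times in ISM1-/-. Its libraries did not overlap, at 2.24 ± 0.461 against 1.22 ± 0.120 CPM (log2 fold change −0.87, SE 0.218, adjusted p = 0.0736, Benjamini-Hochberg adjusted quasi-likelihood test of edgeR), and it was past the threshold in 2 of 6 fits with a library left out. Dock2, a Rac exchange factor of leukocytes that is mutated in some C57BL/6N colonies, had 46.8 ± 1.76 CPM in WT and 58.1 ± 10.5 in ISM1-/- (log2 fold change 0.31, adjusted p = 0.206, same test), with overlapping groups. Rptor, a subunit of the mTORC1 kinase complex, had 60.5 ± 3.80 and 59.1 ± 5.49 CPM.

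The genes whose pattern over the 6 libraries was most like that of each listed gene were named by Pearson's r of log2(CPM + 0.5) among the 15869 genes whose mean reached 1 CPM, as a description over 6 libraries that share their scaling. For AC149090.1 these were Cygb, which encodes cytoglobin, Htra3, a serine protease gene, and G0s2, an inhibitor of adipose triglyceride lipase, each with r = 0.996. Genes this like AC149090.1 over the libraries have to be lower in ISM1-/- as well, so their direction is part of the choice. For Nlrp12 they were Gimap1os (0.995), Gm15441 (0.992) and Gm26586 (0.984), and for Wdfy1 they were Fam13b (0.995), Srpk1 (0.994) and Rps6ka5 (0.993). For Nnt they were Wt1 (0.996), Naa15 (0.991) and Naa25 (0.989), and for Ide Il18r1 (0.994), Cd24a (0.988) and Ppef2 (0.986). For Mmrn1 they were Tulp1 (0.997), Il7 (0.992) and Ercc6l2 (0.987), and for Cyfip2 Miip (0.992), Nup214 (0.987) and 3830408C21Rik (0.985). With 15869 genes and 6 libraries, values of this size were reached for every listed gene, including Pisd, whose closest were Slc12a4 (0.986), Nxt1 (0.983) and Mapk8ip3 (0.977).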

How the data were processed

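Lung RNA of 3 WT and 3 ISM1-/- mice was sequenced by the authors as 150-base read pairs, filtered and mapped to GRCm38 with STAR; CASAVA is also named in the submitters' processing notes. The authors deposited raw counts per gene for 54532 genes and FPKM values made from them by library total and gene length. The counting program, annotation release and strand setting are not given in the sources used here, so overlapping genes and near-identical copies are uncertain. Coordinates are those of the deposited table.

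The members and gene lists were chosen with earlier results of these data known. Counts were fitted with edgeR 4.0.16 under R 4.3.3 (genes reaching 0.5 CPM in 1 library or more, TMM scaling, quasi-likelihood test, Benjamini-Hochberg adjustment over 18689 genes), without covariates. The tests were tried on simulated data. Changes there were 2-fold or larger, in genes of at least 1 CPM, so smaller changes and lower levels were not covered. The study used DESeq2 (1.42.0 here), an alternative. Called genes had an adjusted p under 0.1, with a 2-fold change where stated. SDs are over 3 libraries, each from 1 mouse; intervals over reads were not used. Totals were 37606133 to 42345042 counts per library, and depth limits the precision of Nnt and Nlrp12 above all. No libraries agreed within sampling noise (chi-square per degree of freedom 5.10 to 27.6). Transcripts and exons came from GENCODE M21, which held 54495 of the table's IDs (53585 at the same coordinates); identity was computed with blastn 2.17.0 and shared stretches as exact windows of 150 bases. Of the 9 names, 8 had a transcript sequence.

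Genes named are the members, Ism1, up to 4 genes past the adjusted p in each list or else the 2 with the highest mean CPM, neighbours within 500 kb past the adjusted p and the nearest tested neighbour, the 3 genes most alike to each member, and scaffold genes past the adjusted p. Genes named outside this rule were chosen after their values were seen: Idh2, Ticam1, Tlr3, Tlr4, Entpd1, Fgfbp3, Cyfip1, Dock2, Rptor, Mmrn2, Nlrp3, Pf4, Vamp7, Gm20671, Gm43695, Entpd4b, Pisd-ps2 and the neutrophil markers. Alternatives were DESeq2, RLE size factors, library totals, an adjusted p of 0.05, a mean above 2 CPM, no filter, the replicate number as a block, log2(FPKM + 0.1) and log2(FPKM + 1), and the omission of each library. Sequence variants in the members and the authors' own comparisons were not analysed here, and 2 genes that the naming rule covers are not reported here.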

Additional observations from a re-analysis of the deposited data

How the results depend on the processing

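The log2 fold changes of the 8 members with enough counts, and of Crb1, Entpd3, Entpd8, Il1b, Nadk2, Pisd-ps1 and A730020E08Rik, kept their sign under every other tool, scaling, filter and (members) FPKM pseudocount in which they were fitted. Nnt, Nlrp12, Crb1 and Entpd8 did not pass the filter of a mean above 2 CPM and were not fitted under it. The other named genes were not refitted. The number of genes called with a 2-fold change (106) was 51 at an adjusted p under 0.05, 37 with a mean above 2 CPM and 293 with no filter, and lay between 31 and 188 with single libraries left out, 188 without the third ISM1-/- library. The number at an adjusted p under 0.1 (882) was 455 at 0.05 and 1632 with no filter, and between 150 (without the second WT library) and 1470 (without the third ISM1-/- library). Genes of the lists related to the members at an adjusted p under 0.1, without the cell type markers of lung, heart, fat and neutrophils and without the members (6), numbered 1 at an adjusted p under 0.05, 3 with a mean above 2 CPM, 10 in DESeq2 and 11 with no filter, and 1 to 11 with libraries left out. Neighbours called (1) numbered 4 in DESeq2 and 5 with no filter, and 0 to 5 with libraries left out. No scaffold gene other than AC149090.1, which was chosen on this contrast, was past the threshold under any of these alternatives. The low genes moved with the pseudocount: Nlrp12 had 0.86 on log2(FPKM + 0.1) and 0.22 on log2(FPKM + 1), and Nnt 0.062 on log2(FPKM + 1), beside 1.37 and 0.27 in edgeR. With single libraries left out Nnt ranged from 0.12 to 0.45, Cyfip2 from −0.16 to 0.02 and Mmrn1 from −0.16 to 0.01, and Il1b from 0.40 to 0.72.

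The labels do not say that the replicate numbers pair the animals. Deviations of libraries with the same number had correlations of −0.0274, 0.0313 and 0.0371, and those with other numbers −0.0758 to 0.0618. With 3 animals per group these values cannot decide whether animals were paired. With the replicate number as a block, 130 genes were called with a 2-fold change, 1105 were at an adjusted p under 0.1, and 2 neighbours were called. Il1b and Pisd-ps1 were just inside the threshold in edgeR and had an adjusted p above 0.1 with the block, Il1b (0.108) also with library totals and with a mean above 2 CPM, and Pisd-ps1 also with RLE size factors (0.104) and no filter (0.103). The cause of these moves was not tested. Depth limits Nnt and Nlrp12, which had at most 52 and 74 counts in a library.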
